A study of Mus musculus with 14 samples.

Results

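The antimicrobial and oxidase genes of the intestinal epithelium were followed in jejunal RNA from 14 mice. The set holds 10 genes, taken by name: Reg3a, Reg3b, Reg3g, Lcn2, Duox2, Duoxa2, Nos2, Saa1, Saa2 and Nod2. On arrays that measured 22180 genes through a probe set with 1 gene symbol, 8 of the 10 had such a probe set. Duoxa2 and Saa1 were represented only by probe sets shared with a neighbouring gene (Duoxa1 for Duoxa2, Saa2 for Saa1), so neither has values of its own here. Saa2 fell below the filter on dim genes, and 7 of the 10 were therefore tested among 18010 genes.

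The mice carried LRH-1 K289R (K289R, 7 mice) or wild-type LRH-1 (WT, 7 mice). LRH-1, the product of Nr5a2, is a nuclear receptor, and K289R replaces with arginine a lysine to which the small protein SUMO can be attached. All mice were 19 to 21 weeks old, ate freely and were killed at 7 am, and the jejunum was snap-frozen. They shared cages, and sex, cage, litter and scan day are not given in the labels. The p-values treat the 14 mice as independent and do not allow for a shared cage, litter or scan day. The title of the series speaks of hepatic LRH-1 as well, but every sample is labelled jejunum, and the enterocyte markers villin (Vil1, log2 intensity 12.88 to 13.10) and sucrase-isomaltase (Sis, 13.49 to 13.66) were bright on all 14 arrays. Nr5a2 itself averaged 10.18 ± 0.19 on K289R arrays and 10.32 ± 0.18 on WT arrays (SD, n = 7 each), which cannot show a change of 1 amino acid.

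These genes form the chemical side of the barrier between the gut lumen and the host. Reg3 lectins and lipocalin-2 are secreted into the mucus against bacteria, while the membrane oxidase DUOX2, which needs its partner DUOXA2 to mature, and the nitric oxide synthase NOS2 release reactive oxygen and nitrogen species. NOD2 senses fragments of the bacterial cell wall, and the cytokines IL-22 and IL-17, acting through STAT3 and NF-kB, are known to raise most of the effector genes when microbes come close. LRH-1 is known in the gut for crypt renewal and for local glucocorticoid synthesis.

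Reg3b, Reg3d, Reg3a, Reg2, Reg1 and Reg3g follow each other in this order on mouse chromosome 6, Saa3, Saa4, Saa1 and Saa2 on chromosome 7, and Duox2 lies next to Duoxa2 on chromosome 2 (RefSeq genes of GRCm38.p6). RefSeq windows from 250 bases before to 50 bases after the gene start matched 9 of the 10 members, all but Nos2. Those of the 3 Reg3 genes are shown because Reg3b and Reg3g moved together from mouse to mouse whereas Reg3a did not. They lie at chr6:78370635-78370934 on the plus strand (Reg3b), chr6:78468825-78469124 on the minus strand (Reg3g) and chr6:78380459-78380758 on the plus strand (Reg3a), all in GRCm38.p6, and each is written 5′ to 3′ on the strand of its gene. Capitals mark motif matches.
Reg3b: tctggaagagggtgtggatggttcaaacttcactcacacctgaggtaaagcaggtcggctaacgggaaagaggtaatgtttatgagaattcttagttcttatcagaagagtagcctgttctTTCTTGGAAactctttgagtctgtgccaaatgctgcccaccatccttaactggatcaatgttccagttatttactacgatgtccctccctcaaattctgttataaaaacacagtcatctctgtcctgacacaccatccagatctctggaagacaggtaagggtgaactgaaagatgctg
Reg3g: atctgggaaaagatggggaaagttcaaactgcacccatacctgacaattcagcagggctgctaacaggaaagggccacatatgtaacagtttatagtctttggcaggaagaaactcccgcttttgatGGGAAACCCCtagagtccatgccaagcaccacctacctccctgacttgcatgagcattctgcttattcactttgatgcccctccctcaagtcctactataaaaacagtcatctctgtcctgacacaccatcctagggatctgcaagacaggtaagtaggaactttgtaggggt
Reg3a: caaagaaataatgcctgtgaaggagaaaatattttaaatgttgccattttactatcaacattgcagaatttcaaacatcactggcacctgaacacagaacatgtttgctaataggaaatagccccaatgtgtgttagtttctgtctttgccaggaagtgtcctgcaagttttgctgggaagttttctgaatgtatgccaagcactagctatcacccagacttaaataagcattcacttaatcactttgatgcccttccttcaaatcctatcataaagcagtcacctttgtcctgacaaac

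The capitals in Reg3b are a match to the STAT motif TTCNNNGAA at positions -129 to -121, counted from the gene start. Those in Reg3g are a match to the NF-kB consensus at positions -123 to -114. Among all 32851 mouse windows of this length, 8.30% held the STAT motif and 8.46% the NF-kB consensus, searched on both strands. The half-site of LRH-1 and its relatives, AAGGTCA or AAGGCCA, was in 10.6% of all windows and in none of the 9 member windows. These matches describe the letters and do not show binding. The Reg3b and Reg3g windows were identical at 71.4% of 294 aligned bases and shared the unbroken run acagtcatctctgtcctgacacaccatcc, which begins at position -20 in both. The Reg3a and Reg3g windows were identical at 74.3% of 249 aligned bases, with 185 identical bases against 210 between Reg3b and Reg3g. The longest run shared by Reg3a and Reg3g was 14 bases, at positions -10 to 4 in Reg3a and -57 to -44 in Reg3g. The gene starts of these 2 windows thus lie at different points of the shared sequence. Saa1 and Saa2, which share a probe set on the array, were identical at 96.0% of 299 aligned bases.

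Between the genotypes, none of the 7 tested genes passed an adjusted p of 0.05 in limma, against 8 of all 18010 genes (0.0444%). At an unadjusted p of 0.05, 0 of the 7 passed, against 1528 of all genes (8.48%). The arrays of the genotypes did not separate for any of the 7, whereas they did for 30 of all genes (0.167%). Of the 7 genes, 3 had a positive difference (Duox2, Nos2 and Nod2) and 4 a negative one (Reg3a, Reg3b, Reg3g and Lcn2), with a median of -0.0091 on the log2 scale beside -0.0039 over all tested genes. Whole tissue was measured, so fewer cells of a type and less RNA per cell cannot be told apart.

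**Figure D1:**
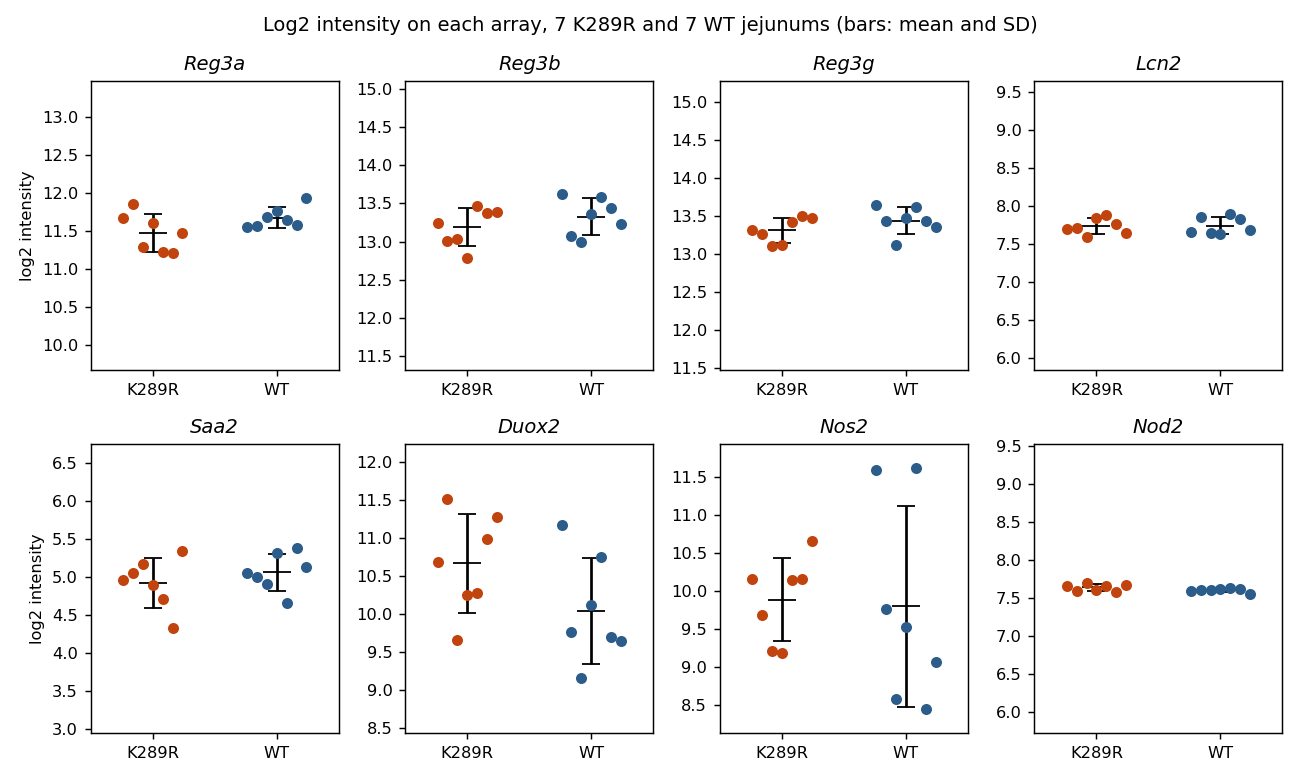
Log2 intensity of the 8 genes with a probe set of their own, 1 panel per gene with axes of equal length, 7 K289R arrays (orange) to the left of 7 WT arrays (blue), with the mean and SD as black bars. The points of the genotypes overlap in all 8 panels, and the spread is widest for Nos2 and Duox2.

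The Reg3 genes encode C-type lectins, of which REG3G and REG3B bind and keep bacteria off the epithelium. All 3 were among the brighter probe sets of the arrays. Reg3a had log2 intensities from 11.21 to 11.85 with a median of 11.48 on K289R arrays, and from 11.55 to 11.93 with a median of 11.65 on WT arrays. On 6 of 7 K289R arrays the level was below the WT mean, the exception being K289R replicate 2, and the genotypes overlapped. The difference was -0.20 (SE 0.096, 95% interval -0.40 to 0.0028), with an adjusted p of 0.597 in limma and p = 0.0862 in an exact two-sided permutation test over all 3432 splits, whose smallest possible p is 0.000583.

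Reg3b reached from 12.79 to 13.47 with a median of 13.24 on K289R arrays, and from 12.99 to 13.63 with a median of 13.36 on WT arrays. Its difference of -0.14 (SE 0.116, 95% interval -0.39 to 0.10) had a limma adjusted p of 0.737. Reg3g spanned 13.10 to 13.50 with a median of 13.33 on K289R arrays, and 13.12 to 13.65 with a median of 13.44 on WT arrays. For Reg3g the difference was -0.12 (SE 0.0840, 95% interval -0.30 to 0.05) and the limma adjusted p 0.687. In both genes the same 2 WT mice, replicates 1 and 5, were the highest of all 14, and the ranges overlapped over most of their length. Over the 14 arrays Reg3b varied 1.79-fold, Reg3a 1.66-fold and Reg3g 1.46-fold. The highest log2 intensity of any probe set on any array was 14.29, not far above the Reg3b and Reg3g levels, and whether their signal was compressed at the bright end was not tested.

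Lcn2 and Saa2 encode the other secreted proteins measured. Lcn2, whose product lipocalin-2 starves bacteria of iron by binding their siderophores, stood at 7.59 to 7.87 with a median of 7.70 on K289R arrays, and at 7.62 to 7.89 with a median of 7.68 on WT arrays. The 2 ranges almost coincided. The difference of -0.0091 (SE 0.0595) had a 95% interval from -0.13 to 0.12, so a change of 0.2 log2 units in the signal lay outside it either way. Of all probe sets 53.8% to 60.4% were dimmer than Lcn2, and whether its signal was compressed at this level was not tested. Saa2, a serum amyloid A that binds retinol and lipid, was near the floor of the array, at 4.32 to 5.33 on K289R arrays and 4.66 to 5.37 on WT arrays. Between 6.13% and 14.1% of all probe sets were dimmer, and in the fit without a filter its difference was -0.14 (SE 0.135), with an adjusted p of 0.811 in limma.

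Duox2 showed the greatest difference among the 7 tested genes. Its log2 intensity was 10.69, 11.51, 9.66, 10.25, 10.28, 10.98 and 11.27 in K289R replicates 1 to 7, against 11.17, 9.76, 9.16, 10.12, 10.74, 9.69 and 9.64 in WT replicates 1 to 7. Thus 6 of 7 K289R mice were above the WT mean, but WT replicate 1 was exceeded by K289R replicates 2 and 7 alone. The difference of 0.62 (SE 0.305, 95% interval -0.02 to 1.26) corresponds to 1.54-fold, with a limma adjusted p of 0.604 and p = 0.107 in the exact permutation test. Duox2 varied 5.10-fold over the 14 arrays, and its SD within genotypes (0.672) was larger than that of 99.8% of tested genes.

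The arrays that gave Duox2 its high end also differed in another respect. Fabp6, the ileal bile acid-binding protein, exceeded a log2 intensity of 8 on 4 arrays, K289R replicates 2 and 7 (10.71 and 9.91) and WT replicates 1 and 6 (12.52 and 9.18). Slc10a2, the ileal bile acid transporter, was highest on the same 4 (8.03 and 7.12 in K289R, 10.52 and 7.20 in WT). The 7 tested of 8 markers of the distal small intestine summed to intensities of 9376 to 13716 on K289R arrays and 8586 to 22240 on WT arrays, and none passed the adjusted threshold. Duox2 on these 4 was 11.51, 11.27, 11.17 and 9.69, and the first 3 of these are the 3 highest values of all 14. Without the 4 arrays the Duox2 difference was 0.48 (SE 0.276), with a limma adjusted p of 0.708. The part that position along the intestine plays in the Duox2 levels was not tested.

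Nos2, which makes nitric oxide from arginine when induced, varied most. Its log2 intensity was 10.16, 9.69, 9.21, 9.19, 10.15, 10.16 and 10.66 in K289R replicates 1 to 7, against 11.59, 9.76, 8.58, 9.52, 11.63, 8.45 and 9.07 in WT replicates 1 to 7. WT mice held both the highest and the lowest values, 9.03-fold apart, with replicates 1 and 5, the mice highest in Reg3b and Reg3g, standing above all others. WT replicate 1 was also highest of all in Fabp6 (12.52), while WT replicate 5 was not high in it (6.32). WT replicate 6, lowest in Nos2, was high in Fabp6 as well (9.18). The part of position along the intestine in the Nos2 levels was not tested. The SD of Nos2 was 0.547 among K289R arrays and 1.32 among WT arrays, a contrast that was seen in the data and not tested. The mean difference was 0.09 (SE 0.457), and its 95% interval from -0.88 to 1.05 covers ratios from 0.544 to 2.07. The limma adjusted p was 0.968. Within genotypes the SD of Nos2 was larger than that of 99.9% of tested genes, beside a median gene SD of 0.127.

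Nod2 had 2 probe sets of its own. The brighter one read 7.58 to 7.70 with a median of 7.66 on K289R arrays, and 7.56 to 7.63 with a median of 7.61 on WT arrays. The difference was 0.04 (SE 0.038, limma adjusted p 0.800), with p = 0.0763 in the exact permutation test. The SD within genotypes was 0.0354, with 0.122% of tested genes below it. The SE is that of limma, which draws the spread of a gene towards that of all genes. The second Nod2 probe set gave a difference of -0.03 (SE 0.064), of opposite sign, and its SD of 0.116 was wider, above that of 39.6% of tested genes. Between 50.3% and 57.2% of all probe sets were dimmer than these.

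**Figure D2:**
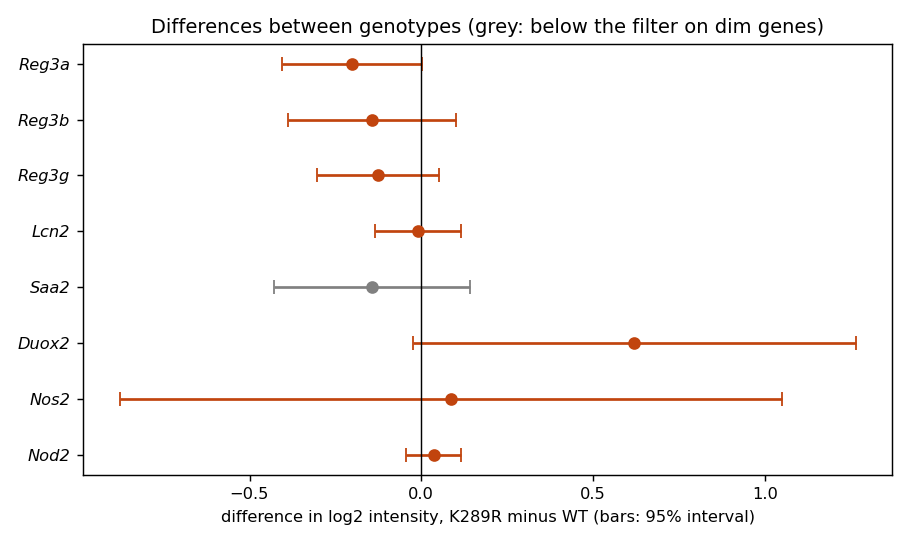
Difference in log2 intensity, K289R minus WT, for the 8 genes (points) with its 95% interval from limma (bars), Saa2 in grey because it was below the filter and comes from the fit without one. All 8 intervals include 0, with Duox2 (0.62) farthest from it and Nos2 the widest.

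While no member passed the test between genotypes, some of them moved with one another from mouse to mouse. Correlations were computed for 5 pairs over the 14 arrays, with Benjamini-Hochberg adjustment over the 5, and 3 further pairs needed Saa1 or Duoxa2. The pairs were chosen for shared family, subunit or response with earlier results of these data known, and the p-values do not allow for that choice. Reg3b and Reg3g were correlated, with Pearson's r = 0.896 (permutation p = 0.00005, adjusted 0.00025) and Spearman's rho = 0.811 (permutation p = 0.00082). The relation was r = 0.905 among K289R mice and r = 0.872 among WT mice (exact p = 0.00714 in each), and r = 0.841 without the 2 arrays farthest from the median. By rank, rho was 0.75 among K289R mice (exact permutation p = 0.0663) and 0.821 among WT mice (exact permutation p = 0.0341). The platform annotation does not say whether probes of these related genes also bind each other's transcripts. Reg3a, which lies between them on the chromosome, gave r = -0.090 and rho = -0.25 with Reg3g (permutation p = 0.759 and 0.380).

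Duox2 and Nos2, the oxidase and the nitric oxide synthase, were correlated as well. Over all mice r was 0.722 (permutation p = 0.00357, adjusted 0.00892) and rho 0.776 (permutation p = 0.00185), and r was 0.809 without the 2 arrays farthest from the median Duox2 level. Among K289R mice r was 0.594 (exact p = 0.145), and among WT mice 0.930 (exact p = 0.00675). Whether the genotypes differ in this relation was not tested.

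Reg3g and Duox2 were not significantly related when the genotypes were pooled (r = 0.474, rho = 0.486, permutation p = 0.0890 and 0.0820, adjusted 0.148 for r). Without the 2 arrays farthest from the median Reg3g level r was 0.187. Within genotypes r was 0.579 among K289R mice (exact p = 0.176) and 0.927 among WT mice (exact p = 0.00119), where the 2 genes put all 7 WT mice in the same order. Over residuals from the genotype means r was 0.768, with an adjusted permutation p of 0.00262. The residuals were shuffled across genotypes without allowing for the means taken out, so this p can be too small. In the plot the K289R arrays lie above WT arrays of like Reg3g level, an offset that was noticed there and not tested. Lcn2 gave r = 0.257 and rho = 0.213 with Reg3g (permutation p = 0.371 and 0.465), and without the 2 farthest arrays r was -0.082.

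**Figure D3:**
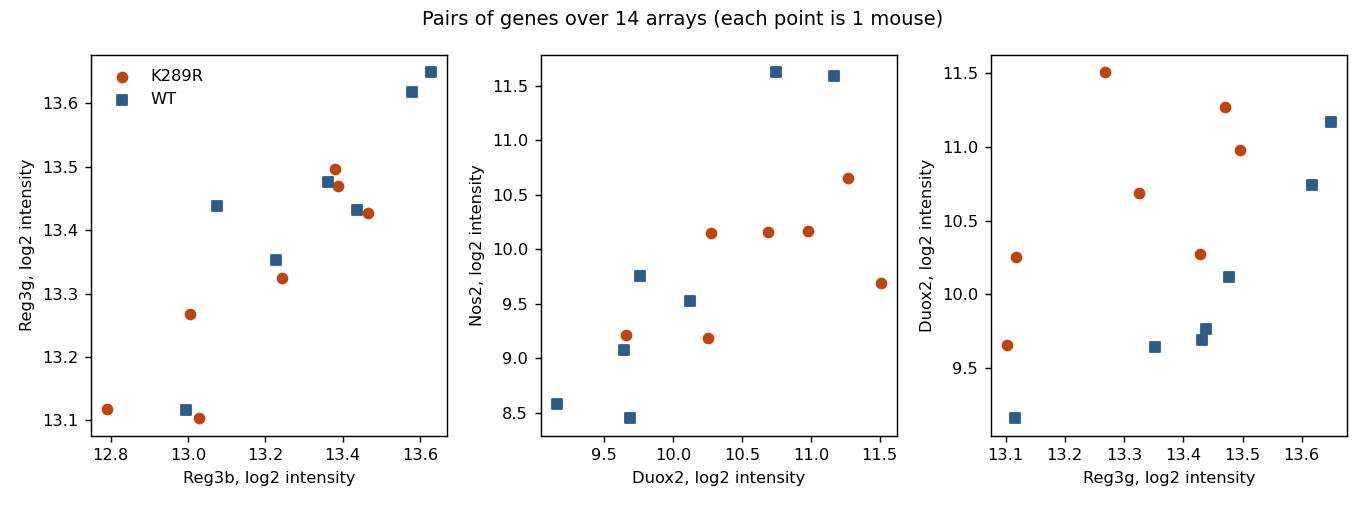
Log2 intensity of Reg3g against Reg3b (left), Nos2 against Duox2 (middle) and Duox2 against Reg3g (right), 1 point per mouse, K289R as orange circles and WT as blue squares. Both genotypes lie along 1 line for Reg3b and Reg3g (r = 0.896), while for Reg3g and Duox2 they form separate bands (pooled r = 0.474).

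Among all other tested genes, those most like Reg3g over the residuals from the genotype means of the 14 arrays were Bend7 (r = 0.853), the pantetheinase gene Vnn1 (0.850), the cathepsin C gene Ctsc (0.808), Sgpp2 (0.803) and H2-M10.2 (0.803). Of these, H2-M10.2 was dim, at log2 intensities of 6.03 to 6.61, near the filter of 6.25. On the same measure of r over residuals Reg3b reached 0.886, Nos2 0.803 and Duox2 0.768 with Reg3g, whereas Reg3a gave -0.33. Genes most like Duox2 were Tmem141 (r = 0.908), the sorting receptor gene Sort1 (0.888), the phosphatase gene Ptprj (0.881), the Wnt target Axin2 (0.867) and Glipr2 (0.863). For Nos2 this measure with Duox2 was 0.784. Picked as the highest among all tested genes, these coefficients describe the 14 arrays and carry no p.

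Other genes of the same defence pathways were read from lists. Over 7 lists of relatives, effectors and regulators, 97 of 111 genes were tested, of which 45 had a positive and 52 a negative difference, with a median of -0.0062. None passed the adjusted threshold in limma, and 4 of the 97 had an unadjusted p under 0.05, where 8.48% of all tested genes did.

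**Figure D4:**
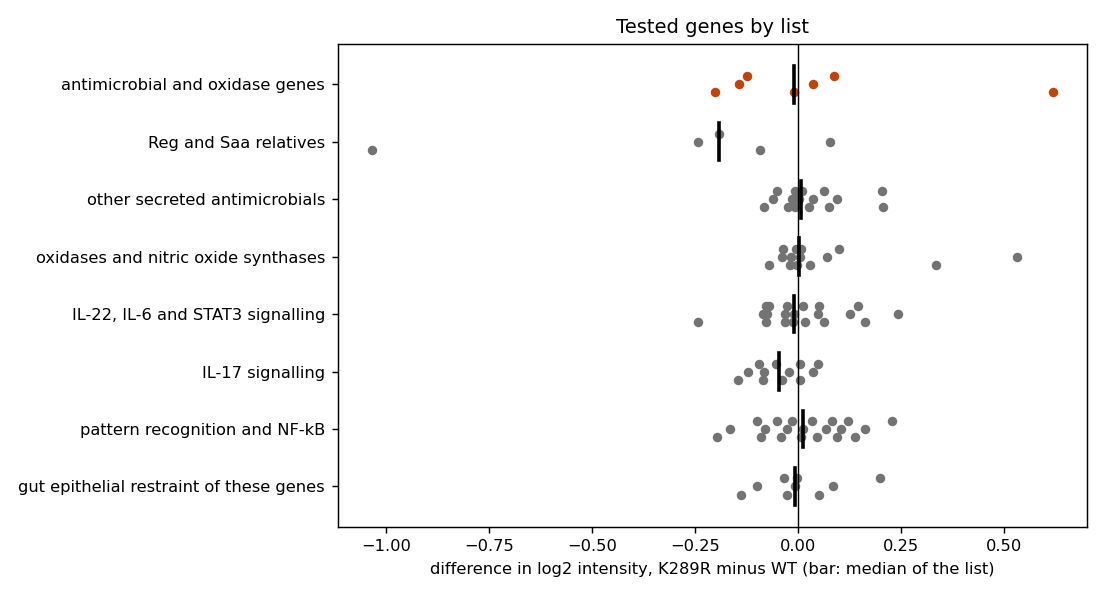
Difference in log2 intensity, K289R minus WT, of each tested gene (points) of the antimicrobial and oxidase genes (orange) and of 7 lists of related genes (grey), with the median of each list as a black bar. Most points lie within 0.25 of 0, apart from Duox2 (0.62), Nox1 (0.53) and Cybb (0.34) on the higher side and Reg1 (-1.04) on the lower.

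Among relatives of the Reg and Saa genes 4 of 5 tested had a negative difference, with a median of -0.19 and none past the adjusted threshold. Reg1, a regenerating protein gene named from the pancreas, lies beside Reg3g on chromosome 6 and ranged from 7.74 to 11.46 on K289R arrays and from 8.65 to 12.26 on WT arrays. The Reg1 difference of -1.04 (SE 0.633, 95% interval -2.37 to 0.30) had a limma adjusted p of 0.660. The arrays high in Fabp6 held the lowest Reg1 values of each genotype. These were 8.06 and 7.74 in K289R replicates 2 and 7, and 8.65 and 8.92 in WT replicates 1 and 6. K289R replicate 4, not high in Fabp6, read 8.65. The part of position along the intestine in the Reg1 levels was not tested. Saa4 differed by -0.19 (SE 0.079, adjusted p 0.514 in limma) and Reg4 by -0.24 (SE 0.116, adjusted p 0.593 in limma). The Saa4 and Reg4 levels overlapped between the genotypes, and Saa4 was dim, between 6.01 and 6.59.

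Of the other genes listed as oxidases and nitric oxide synthases, 14 of 16 were tested, 7 with a positive and 7 with a negative difference. Counted among them are the peroxidases Mpo, Lpo and Epx and the oxidase subunits or partners Cyba, Ncf1, Ncf4, Noxa1 and Duoxa1. Nox1, the superoxide-generating oxidase of the colon epithelium, had the smallest p. Its log2 intensity ran from 7.26 to 8.32 with a median of 7.83 on K289R arrays, against 6.78 to 8.05 with a median of 7.25 on WT arrays, a difference of 0.53 (SE 0.193, limma adjusted p 0.444). Cybb, the phagocyte oxidase subunit, differed by 0.34 (SE 0.166) and Nox4 by 0.10 (SE 0.0647). WT replicate 5, highest of all mice in Nos2, was also highest among WT mice in Nox1.

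The list of other secreted antimicrobials, 16 of 20 tested, gave 9 positive and 7 negative differences with a median of 0.0060. Its counts include Nupr1, which encodes a nuclear protein and not a secreted antimicrobial. The nearest to a difference were Nupr1 (0.21, SE 0.148), Pla2g2a, a phospholipase of Paneth cells (0.20, SE 0.171), and Lypd8, which binds flagella (-0.06, SE 0.0498). Each had a limma adjusted p of 0.708 or more.

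Upstream, the IL-22, IL-6 and STAT3 list had 20 of 24 genes tested, 9 higher and 11 lower, and the IL-17 list 12 of 12, 4 higher and 8 lower. Il22 itself was at the floor, with log2 intensities from 3.04 to 3.23 on K289R arrays and 3.05 to 3.25 on WT arrays, while its epithelial receptor subunit Il22ra1 averaged 12.14 ± 0.19 on K289R arrays and 12.13 ± 0.12 on WT arrays (SD, n = 7 each). The first 3 by p in each list were Il6st, the shared receptor of the IL-6 family (0.16, SE 0.0796), Il18 (-0.24, SE 0.135) and Il6ra (0.15, SE 0.085), then the chemokine gene Cxcl1 (-0.12, SE 0.0666), Il17c (-0.15, SE 0.0952) and the IL-17 receptor adaptor Traf3ip2 (-0.05, SE 0.0497). None of these 6 had a limma adjusted p below 0.603.

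In the list of pattern recognition and NF-kB genes 12 were higher and 9 lower, of 21 tested. Tnfaip3, which encodes the NF-kB inhibitor A20, differed by -0.20 (SE 0.0809, limma adjusted p 0.510), Tlr3, the receptor of double-stranded RNA, by 0.16 (SE 0.0716, limma adjusted p 0.544) and Tlr9 by 0.12 (SE 0.0672). Of 9 tested genes known to restrain these responses 3 were higher and 6 lower, led by Irak3 (0.20, SE 0.0999), Sigirr (-0.14, SE 0.079) and Tollip (-0.10, SE 0.0639).

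Leucocytes also express Nos2, Lcn2 and Nod2, so markers of other cells are given beside them. Of 10 neutrophil markers 6 were tested, and their summed intensity was 771 to 855 on K289R arrays and 736 to 868 on WT arrays. S100a8 (5.04 to 5.40 on K289R arrays, 5.04 to 5.37 on WT arrays) and Ly6g (5.51 to 5.96 on K289R arrays, 5.45 to 5.93 on WT arrays) were below the filter. Macrophage and dendritic markers, 10 of 10 tested, summed to 4355 to 6696 on K289R arrays and 4456 to 6538 on WT arrays, 8 of them with a positive difference and none past the adjusted threshold. T cell and innate lymphoid markers, 8 of 10 tested, summed to 1912.5 to 3954 on K289R arrays and 1855 to 3831 on WT arrays. Their differences were positive for 5 and negative for 3. B and plasma cell markers, 7 of 8 tested, summed to 6689 to 10882 on K289R arrays and 6493 to 9929 on WT arrays. Here 6 were positive and 1 negative, and no gene of either list passed the adjusted threshold. Paneth cell markers, 8 of 10 tested, summed to 57737 to 71795 on K289R arrays and 54612 to 70157 on WT arrays. The part of these cells in the levels of Nos2, Lcn2 and Nod2 was not tested.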

How the data were processed

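Jejunal RNA of 14 mice was amplified, labelled with biotin and hybridised to Affymetrix arrays, 1 per mouse, per the labels' protocols. The deposited values are probe set intensities on a linear scale, made with Affymetrix Expression Console, per the submitters' processing notes. Not given in the sources used here were its version, summarisation and normalization. Array medians were 168 to 174, so the arrays had been brought to 1 scale, which removes any global shift in RNA amount. The number of arrays limits the precision.

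Intensities were log2-transformed. Of 41345 probe sets 23521 had 1 gene symbol in the platform annotation, 1814 had several and 16010 were unnamed here. The brightest probe set stood for a gene. Dim genes, averaging under log2 6.25 (the 25th percentile over probe sets), were left out. K289R was compared with WT in limma 3.58.1 (R 4.3.3, lmFit and eBayes, 2-sided), adjusted by Benjamini-Hochberg over all 18010 tested genes, with a threshold of 0.05. The limma fit, and no other step, was tested on simulated data with known differences. Permutation tests were exact for 7 arrays and for genotype splits and drew 100000 resamples for 14. Windows were aligned with Biopython 1.88.

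Members, lists and pairs were chosen with earlier results of these data known. Named are all members, the 3 genes with the smallest p in each list whose genes are described, the 5 genes most like Reg3g and Duox2, Nr5a2, Fabp6 and markers beside a result. Others (Vil1, Sis, Il22, Il22ra1, S100a8 and Ly6g) were added for background. The labels do not say whether shared replicate numbers pair mice. Deviations of same-numbered arrays correlated at -0.15 to 0.17, which does not settle it, so a replicate block was run as an alternative. No 2 arrays were near-copies, the smallest root mean square difference being 0.241 log2 units.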

Additional observations from a re-analysis of the deposited data

How the results depend on the processing

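The number of members past the adjusted threshold was 0 under all 25 alternatives (other normalizations, filters, probe set rules and limma options, a looser threshold of 0.1, a replicate block, leaving out the arrays high in Fabp6 and each array in turn), with a lowest adjusted p of 0.309, that of Duox2 with array weights. With the replicate block Duox2 differed by 0.62 (SE 0.267, limma adjusted p 0.598). The count over all genes, 8, was 0 with the replicate block, 14 with array weights, 12 with quantile normalization or a filter at the median, 5 with all probe sets or without the arrays high in Fabp6, and 4 to 14 when 1 array was left out. Of the related and marker lists 0 genes passed, and 0 to 1 when 1 array was left out, the 1 being the acinar marker Sycn without WT replicate 7 (limma adjusted p 0.0395). Reg3a, Reg3b, Reg3g, Duox2, Saa2 and Nod2 kept their sign in all 24 alternatives run for each, but their sizes moved. Duox2 lay between 0.47 and 0.81, Reg3a between -0.32 (without the arrays high in Fabp6) and -0.16, Reg3b between -0.20 and -0.066 (without the arrays high in Fabp6; -0.077 without K289R replicate 4), Reg3g between -0.18 and -0.090, Saa2 between -0.21 and -0.044 (without K289R replicate 6) and Nod2 between 0.0045 (mean over probe sets) and 0.046. Lcn2, at -0.0091, turned to 0.0029 with array weights and 0.0156 without the arrays high in Fabp6, and ran from -0.033 to 0.016 when 1 array was left out, positive without WT replicate 2, 5 or 6 or K289R replicate 3 or 7. Nos2 ran from -0.14 to 0.39 likewise, negative without WT replicate 3, 6 or 7 or K289R replicate 7. For Reg3a with Reg3g r ran from -0.31 to 0.0057, positive without K289R replicate 6. For Reg3g with Duox2 r was 0.768 over residuals from the genotype means (adjusted permutation p = 0.00262, not allowing for the means taken out). It was 0.339 to 0.639 when 1 array was left out, passing 0.05 without K289R replicate 2 (adjusted permutation p = 0.0341). For Reg3g with Lcn2 r was 0.467 without the arrays high in Fabp6 and 0.091 (without K289R replicate 3) to 0.449 (without K289R replicate 4) when 1 array was left out, with no adjusted p under 0.154. Reg3b with Reg3g and Duox2 with Nos2 stayed past the threshold in all 19 alternatives, with r of 0.871 to 0.943 and 0.667 to 0.838. The cause of these changes was not tested.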
